A study of Saccharomyces cerevisiae with 12 samples.

Results

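The 10 genes described here encode enzymes of purine nucleotide synthesis and of the one-carbon pathway that feeds it, and are known targets of the yeast activator Bas1. They were chosen by name, as the rows of the deposited table for ADE4 (YMR300C), ADE5,7 (YGL234W), ADE6 (YGR061C), ADE2 (YOR128C), ADE1 (YAR015W), ADE13 (YLR359W), ADE17 (YMR120C), SHM2 (YLR058C), MTD1 (YKR080W) and GCV2 (YMR189W). The choice was made with earlier results of these data known. All 10 were found among the 6177 genes of the table. Enough arrays measured 8 of them for the main test, and ADE2 and ADE6 had too many empty cells for it. RNA of budding yeast san1 mutant cells was hybridized together with RNA of cells carrying SAN1 on each of 12 2-colour arrays. SAN1 encodes a nuclear ubiquitin ligase of protein quality control. On 6 arrays the cells had grown in YC, as the labels call it, and on the other 6 in YEPD, a rich medium. Per medium, the san1 RNA was in channel 2 on 3 arrays (arrays 1 to 3) and in channel 1 on the other 3 (arrays 4 to 6). The composition of YC, the san1 allele, the strain background and the cultures behind each array are not stated. The p-values therefore reflect only how far these arrays spread, and that spread may be technical.

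Yeast cells build purines step by step on activated ribose, ending at IMP, from which AMP and GMP branch off. Carbon units carried by folate enter this pathway, and serine and glycine supply them. When purines run short, Bas1 and its partner Pho2 switch on most of these genes, and adenine in the medium turns them down.

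Values are log2 ratios of the mutant (san1) over SAN1, so that a positive value means more transcript in the mutant. The labels name the RNA in each channel but do not say which channel is on top in the table. The direction was taken from the SAN1 row, which was far lower in san1 on every array once channel 2 was read as the numerator. Single arrays lay between -4.57 and -2.69 in YC and between -3.94 and -3.39 in YEPD. The array descriptions word the comparison as SAN1 over san1. Read that way throughout, SAN1 would be higher in the mutant on 6 arrays and lower on the other 6, so the direction used here is the likely one and not a stated one. The base of the logarithm is not stated either and was taken as 2. Were it the natural logarithm, the folds would be larger, with the same signs and tests.

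The arrays held between 5812 and 6154 genes with a value, with SDs of 0.16 to 0.205. YC arrays 1 and 4 stood apart in 2 ways. Of their values, 6.15% and 7.42% were equal to another value on the same array, against 0.7% to 2.56% on the other 10, although 0 of the values of the 10 genes were among the equal ones. The mean of these 2 arrays was also the lowest of the 3 means of arrays n and n plus 3 in YC for all 8 tested genes. The difference between YEPD arrays 4 and 6 had an SD of 0.106, smaller than that of the other YEPD arrays of shared dye orientation (0.154 to 0.174). Values without YC arrays 1 and 4 are given as a description. These arrays were left out after their values were seen, and since their mean was the lowest for all 8 genes, leaving them out could only raise each change in YC. Calls gained that way are no support for a change.

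In YC, ADE1 and MTD1 were the highest of the 8 tested genes in san1 cells. Of the 8, 5 rose (ADE1, MTD1, ADE17, GCV2 and ADE13), 0 fell and 3 did not pass. That is 62.5%, against 24.8% of all 5890 genes tested that passed in either direction and 13% that rose. As the genes were chosen with earlier results of these data known, this share is a description and no test of the set. The median change of the 8 was 0.17, beside 0.00 for all genes tested. The test was limma's linear model with a mean for each medium and a term for the dye. It was adjusted by Benjamini-Hochberg over all 5890 genes, with calls at an adjusted p under 0.05. The spread of each gene was estimated from all 12 arrays together. For all of the 8 but SHM2, the means of arrays n and n plus 3 ranged more widely in YC than in YEPD. With YC fitted alone, 3 of 8 rose (ADE1, MTD1 and ADE13). Whether arrays n and n plus 3 of a medium, which have opposite dyes, held the same RNA is not stated. Averaged as if they did, which leaves 3 values a medium, 3 of 8 rose (ADE1, MTD1 and ADE13). Without YC arrays 1 and 4, a choice that could only raise the changes of these genes, 6 of 8 passed, ADE4 being the sixth.

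**Figure D1:**
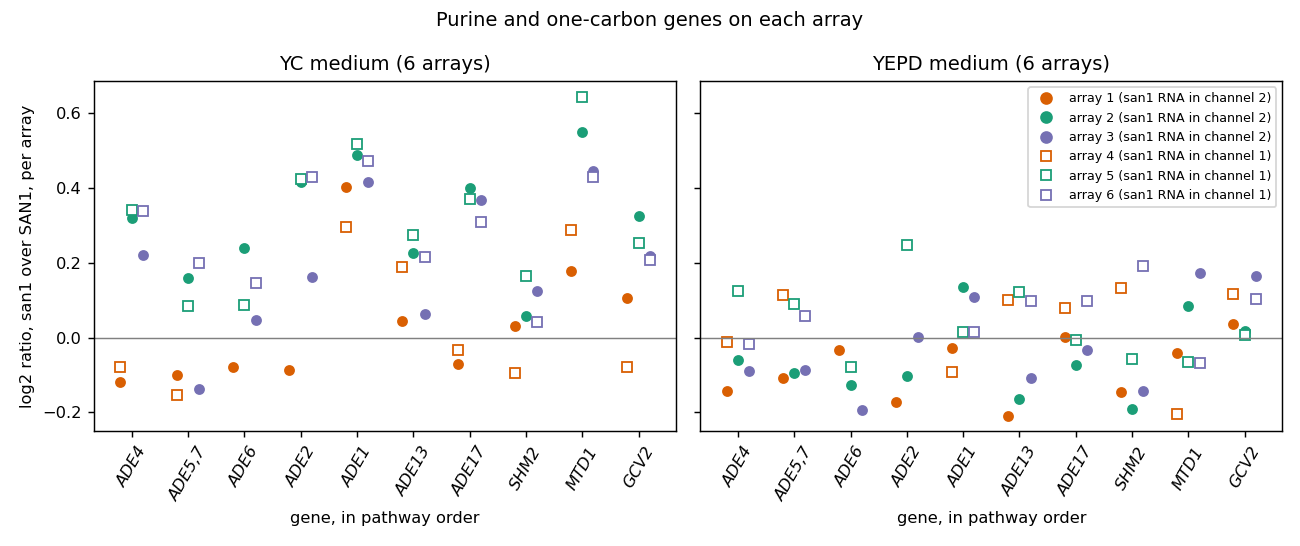
Log2 ratio of san1 over SAN1 for each of the 10 genes on each array (y axis), in pathway order (x axis), with YC left and YEPD right. Filled circles are arrays 1 to 3, open squares arrays 4 to 6 of the opposite dye orientation, and arrays n and n plus 3 share a colour. ADE1 and MTD1 lie above 0 on all 6 YC arrays, while ADE4, ADE17 and ADE2 lie below 0 on YC array 1 and at 0.16 or above on YC arrays 2, 3, 5 and 6.

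The pathway opens with ADE4, the PRPP amidotransferase gene, whose enzyme makes the committed step. Its log2 ratios in YC ran from -0.12 through a median of 0.27 to 0.34, and in YEPD from -0.14 through -0.04 to 0.12. It was above 0 on YC arrays 2, 3, 5 and 6 and below 0 on arrays 1 and 4, so the media overlapped. The fitted change in YC was 0.17 (SE 0.060, n = 6 arrays, 95% confidence interval 0.04 to 0.30) and missed the threshold in limma (adjusted p = 0.0554). Leaving out YC array 4 or array 1, its 2 lowest, brought ADE4 past the threshold in limma (adjusted p = 0.00989 and 0.0149), and without both the change was 0.31.

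ADE5,7 encodes one protein for the second and the fifth step, GAR synthetase and AIR synthetase. It lay between -0.15 and 0.20 in YC (median -0.01) and between -0.11 and 0.11 in YEPD (median -0.01). No shift was detectable in YC (0.01, SE 0.046, limma adjusted p = 0.915), and the 95% confidence interval of -0.09 to 0.11 bounds any change there to less than that of ADE1. Its YC values lay on both sides of 0 on both dye orientations, and without arrays 1 and 4 the change was 0.08 (limma adjusted p = 0.227).

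ADE6 (FGAM synthetase) and ADE2 (AIR carboxylase, whose loss turns colonies red) lacked values on YC array 4 and on YEPD arrays 4 and 6. ADE2 stood at -0.09, 0.42, 0.16, 0.42 and 0.43 on YC arrays 1, 2, 3, 5 and 6. On YEPD arrays 1, 2, 3 and 5 it stood at -0.17, -0.10, 0.00 and 0.25. It was thus highest on 3 YC arrays and below 0 on YC array 1. Asking for 1 value per dye orientation and medium in place of 2 let both genes be fitted, among 6156 genes. ADE2 then rose in YC by 0.30 in limma (SE 0.062, n = 5 arrays, adjusted p = 0.00783) and stood at 0.07 in YEPD (SE 0.072, n = 4 arrays, adjusted p = 0.87). ADE6 ran from -0.08 through 0.09 to 0.24 in YC and from -0.19 through -0.10 to -0.03 in YEPD, and passed in neither by limma (0.09, n = 5 arrays, adjusted p = 0.175, and -0.10, n = 4 arrays, adjusted p = 0.668).

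ADE1 encodes SAICAR synthetase, the enzyme after AIR carboxylase. Its log2 ratios ran from 0.30 through a median of 0.44 to 0.52 in YC, and from -0.09 through 0.01 to 0.14 in YEPD. All 6 YC arrays lay above all 6 YEPD arrays. The fitted change in YC was 0.43, a 1.35-fold increase, in limma (SE 0.036, n = 6 arrays, adjusted p = 1.29e-05), which ranked ADE1 the 18th highest of 5890 genes. It was 0.47 without YC arrays 1 and 4, and the call held in each of the 26 alternatives tried. These alternatives reuse the same arrays and are not independent of each other.

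ADE13 encodes adenylosuccinate lyase, which acts next and again on the way to AMP. It ran from 0.04 through 0.20 to 0.27 in YC and from -0.21 through 0.00 to 0.12 in YEPD. In YEPD the 3 arrays with san1 RNA in channel 2 lay below 0 and the other 3 above it, and ADE13 was the 1 gene of the 8 whose dye term passed (-0.19, limma adjusted p = 0.0206). With that term fitted, the change in YC was 0.17 in limma (SE 0.033, above 0 on 6 of 6 arrays, adjusted p = 0.00374), and this call too held in each of the 26 alternatives (0.19 without YC arrays 1 and 4).

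ADE17 encodes the bifunctional enzyme of the last steps to IMP. Its values ran from -0.07 through 0.34 to 0.40 in YC and from -0.07 through 0.00 to 0.10 in YEPD. Arrays 2, 3, 5 and 6 of YC stood at 0.31 to 0.40, while arrays 1 and 4 stood at -0.07 and -0.03, within the range of YEPD. The fitted change in YC was 0.22 in limma (SE 0.061, n = 6 arrays, adjusted p = 0.0183). The call was lost without YC array 2, 3, 5 or 6 (limma adjusted p = 0.0614, 0.0675, 0.0584 and 0.0585). It was also lost with arrays n and n plus 3 averaged (limma adjusted p = 0.0851) and with YC fitted alone (0.083). The change was 0.36 without YC arrays 1 and 4. ADE16, the paralog of ADE17 with the same activities, rose by 0.12 in limma (SE 0.030, above 0 on 6 of 6 YC arrays, adjusted p = 0.0141). That call was lost with arrays n and n plus 3 averaged (limma adjusted p = 0.0803). The 2 genes are close copies, and cross-hybridization between them was not tested.

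Among the one-carbon genes, MTD1 encodes the NAD-dependent methylene-tetrahydrofolate dehydrogenase of the cytoplasm. It ran from 0.18 through a median of 0.44 to 0.64 in YC and from -0.21 through -0.05 to 0.17 in YEPD. All 6 YC arrays lay above all 6 YEPD arrays, as for ADE1. Of the 10 genes only these 2 had no overlap between media, and of all genes tested 2.12% lay this way and 1.87% the other way. The change in YC was 0.42, a 1.34-fold increase, in limma (SE 0.058, n = 6 arrays, adjusted p = 0.000472), the 21st highest of 5890 genes, and the call held in each of the 26 alternatives (0.52 without YC arrays 1 and 4).

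GCV2 encodes the P subunit of glycine decarboxylase, the mitochondrial complex that releases a carbon unit from glycine. It ran from -0.08 through 0.21 to 0.325 in YC and from 0.01 through 0.07 to 0.17 in YEPD. It was above 0 on 6 of 6 YEPD arrays and on 5 of 6 YC arrays, YC array 4 being the exception. In limma it rose in YC by 0.17 (SE 0.045, n = 6 arrays, adjusted p = 0.0142). That call was lost without YC array 6 (0.16, limma adjusted p = 0.0507). It was also lost with arrays n and n plus 3 averaged (limma adjusted p = 0.0678) and with YC fitted alone (0.0619). Without YC arrays 1 and 4 the change was 0.25. SHM2, the cytosolic serine hydroxymethyltransferase gene, moves a carbon unit from serine onto folate. It lay between -0.09 and 0.16 in YC (median 0.05) and between -0.19 and 0.19 in YEPD (median -0.10). Its fitted change in YC was 0.05 (95% confidence interval -0.05 to 0.16) and did not pass in limma (adjusted p = 0.424), nor did the 0.10 found without YC arrays 1 and 4 (0.176).

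In YEPD, 0 of the 8 genes passed in limma, and 0 had an unadjusted p under 0.05. Of all genes tested 2.05% passed there, 1.73% higher and 0.323% lower in san1. The fit without moderated variances also called 0. The fitted changes lay between -0.04 (SHM2) and 0.07 (GCV2), with a median of -0.01. The 95% confidence intervals reached at most 0.17 upward, for GCV2, and -0.16 downward, for ADE4, so that a change the size of that of ADE1 or MTD1 in YC lay outside all 8 intervals.

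**Figure D2:**
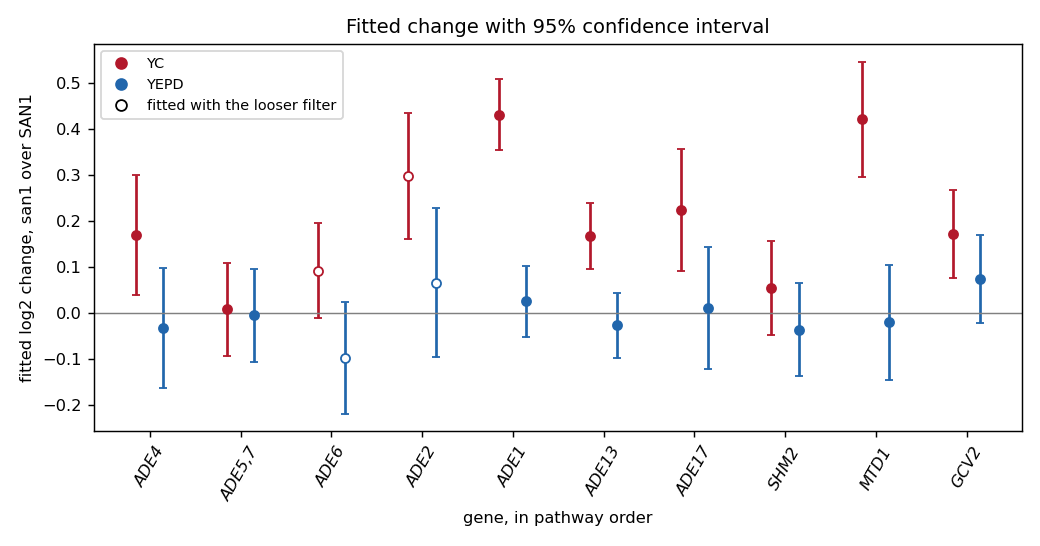
Fitted log2 change of san1 over SAN1 (y axis) for each gene (x axis, pathway order), in YC left of YEPD, with 95% confidence intervals. Open symbols are ADE6 and ADE2, fitted with the filter of 1 value per dye orientation and medium. In YC the highest values are those of ADE1 (0.43) and MTD1 (0.42), and in YEPD all intervals include 0.

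The difference between media was tested directly. The change in YC exceeded that in YEPD for MTD1 (difference 0.44, SE 0.082, limma adjusted p = 0.01), ADE1 (0.41, SE 0.050, adjusted p = 0.0019) and ADE13 (0.19, SE 0.047, adjusted p = 0.0258). These are 3 of 8 genes, against 9.78% of all genes tested that passed in either direction 5.5% with the higher and 4.28% with the lower value in YC. For ADE17 and ADE4 the differences of 0.21 and 0.20 did not pass in limma (adjusted p = 0.126 and 0.138). Nor did those of GCV2 (0.10), SHM2 (0.09) and ADE5,7 (0.01). GCV2, which rose in YC and not in YEPD, thus is not shown to differ between the media, the 95% confidence interval of its difference being -0.04 to 0.23. With arrays n and n plus 3 averaged, 0 of the 8 differences passed in limma (adjusted p = 0.0596 for ADE1, 0.0875 for MTD1 and 0.111 for ADE13, with the same sizes), and 3 of all genes tested did. Without YC arrays 1 and 4, which raises all 8 differences, 6 of 8 passed. Over the mean of both media, 3 of 8 rose (ADE1 by 0.23, MTD1 by 0.20 and GCV2 by 0.12), against 10.4% of all genes tested that passed, 5.87% higher and 4.48% lower.

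The genes differed in how far the YC arrays spread. The means of arrays 1 and 4, 2 and 5, and 3 and 6, in which the dyes cancel, were 0.35, 0.50 and 0.44 for ADE1 and 0.23, 0.60 and 0.44 for MTD1. They were -0.05, 0.38 and 0.34 for ADE17 and -0.10, 0.33 and 0.28 for ADE4. ADE1 and MTD1 thus were above 0 in each of the 3 means, whereas ADE17 and ADE4 were so in the means that leave out arrays 1 and 4. The median of the 8 genes was -0.01, 0.31 and 0.25 in these means. In YEPD it was -0.03, 0.00 and 0.03.

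**Figure D3:**
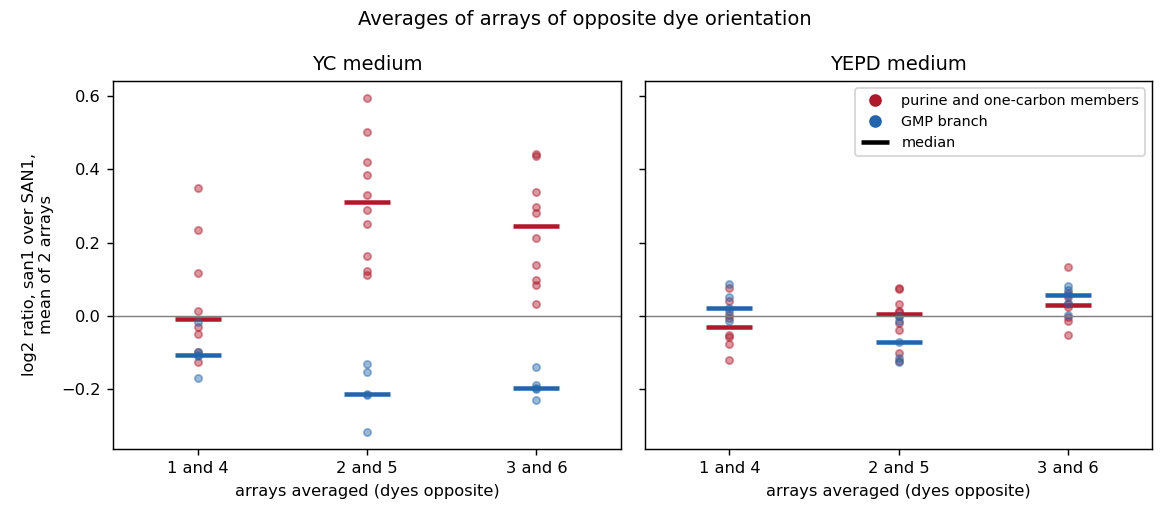
Mean log2 ratio of san1 over SAN1 of arrays n and n plus 3 (y axis), which have opposite dye orientation, for YC left and YEPD right. Red points are the purine and one-carbon genes, blue points the 5 genes of the GMP branch, and bars mark their medians (for the red, over the 8 tested genes). On YC arrays 2 and 5 the medians lie at 0.31 and -0.21, and on arrays 1 and 4 at -0.01 and -0.11.

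Genes of the branch from IMP to GMP moved the other way in YC. All 5 listed fell, and 0 of them passed in YEPD by limma, with 0 at an unadjusted p under 0.05 there. Of all genes tested, 11.8% fell in YC. This list too was chosen with earlier results of these data known. GUA1, the GMP synthase gene, ran from -0.37 through -0.21 to -0.14 in YC and from -0.20 through 0.00 to 0.20 in YEPD. It fell by 0.23 in YC in limma (SE 0.040, below 0 on 6 of 6 arrays, adjusted p = 0.00199), and its change was lower in YC than in YEPD (difference -0.22, adjusted p = 0.0305, and 0.111 with arrays n and n plus 3 averaged). IMP dehydrogenase opens this branch, and its gene copies IMD1 (-0.18), IMD2 (-0.15), IMD3 (-0.15) and IMD4 (-0.12, named after its value was seen) fell as well. The dye terms of GUA1, IMD1, IMD2 and IMD3 passed in limma (adjusted p = 0.0497, 0.0393, 0.0152 and 0.00559). IMD3 stood at -0.27, -0.19 and -0.39 on YC arrays 1 to 3 and at 0.06, -0.07 and -0.01 on arrays 4 to 6. IMD2 stood at -0.28, -0.23 and -0.22 and at 0.05, -0.08 and -0.16. IMD1, like GUA1, was below 0 on 6 of 6 YC arrays. The IMD copies are similar in sequence and may cross-hybridize, so they cannot be counted as 4 independent measurements. With arrays n and n plus 3 averaged, 3 of the 5 passed (GUA1, IMD2 and IMD3). Without YC arrays 1 and 4, 5 of 5 did. The mean of those arrays was the least negative in YC for all 5 genes. Leaving them out could thus only deepen each fall, and this count is no support for one.

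The other genes that supply carbon units were mixed. Of 16 listed genes of one-carbon and folate metabolism, 3 rose, 2 fell and 11 did not pass in YC. That is 18.8% risen and 31.2% called, near the 13% and 24.8% of all genes tested. GCV1, the T subunit gene of glycine decarboxylase, ran from 0.13 through 0.39 to 0.54 in YC and from -0.10 through -0.03 to 0.17 in YEPD, and rose by 0.35 in limma (SE 0.041, adjusted p = 0.000255). LPD1, whose product is the shared dehydrogenase subunit of that complex, rose by 0.17 in limma (SE 0.039, adjusted p = 0.00705). The dye term of LPD1 passed as well (0.20, limma adjusted p = 0.0327). With GCV2, 3 of the 4 subunit genes of the complex thus rose, beside 13% of all genes tested. This count was made with the values known and is a description. The call of GCV2 was lost with arrays n and n plus 3 averaged (limma adjusted p = 0.0678). The remaining gene, GCV3, named after its value was seen, stood at 0.17 (limma adjusted p = 0.0744). GCV3 passed with a dye term for each medium (limma adjusted p = 0.0355) and, at 0.23, without YC arrays 1 and 4 (0.0151). The mean of those arrays was the lowest of its means in YC (0.05). GCV3 did not pass in limma with arrays n and n plus 3 averaged (adjusted p = 0.0578) or as a random block (0.107). Nor did it pass with YC fitted alone (0.0906) or with the array number as a replicate block (0.0699). CDC21, the thymidylate synthase gene, rose by 0.15, a call lost with arrays n and n plus 3 averaged (limma adjusted p = 0.0631) and without YC arrays 1 and 4 (0.0832). The 2 that fell, both named after their values were seen, were SHM1 (-0.14), the mitochondrial counterpart of SHM2, and FOL1 (-0.10), a folate synthesis gene. Both calls were lost without YC arrays 1 and 4 (limma adjusted p = 0.0639 and 0.0848), and that of FOL1 also with arrays n and n plus 3 averaged (0.0967).

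**Figure D4:**
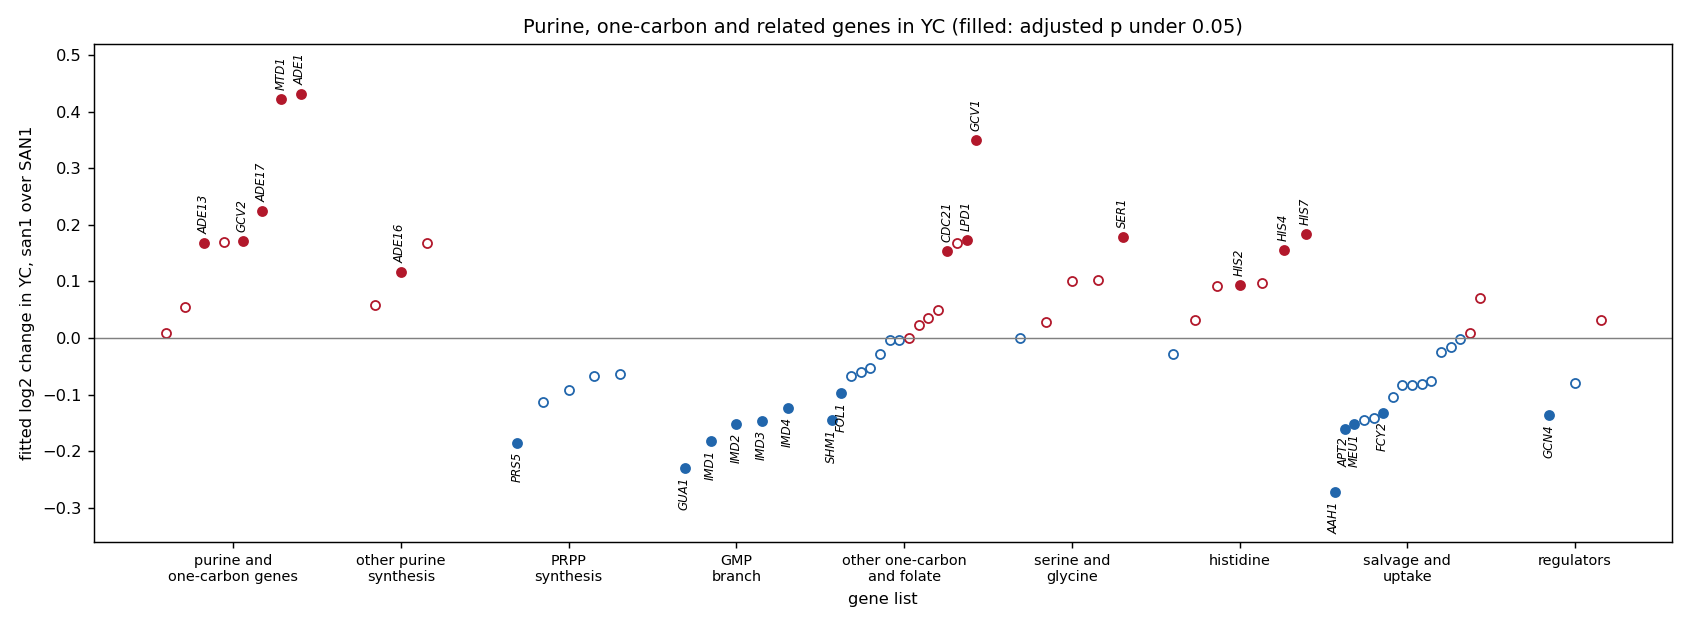
Fitted log2 change of san1 over SAN1 in YC (y axis) for each tested gene of the purine and one-carbon set and of 8 related lists (x axis), sorted within a list. Filled and named points passed an adjusted p of 0.05, red above 0 and blue below. The purine and one-carbon genes lie between 0.01 and 0.43, and the 5 GMP branch genes between -0.23 and -0.12.

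Of 16 purine salvage and uptake genes, 4 passed in YC by limma, all of them lower in san1, and 12 did not (8 had an unadjusted p under 0.05). Thus 25% fell, beside 11.8% of all genes tested that fell and 24.8% that passed in either direction. This list too was chosen with earlier results of these data known. AAH1, the adenine deaminase gene, ran from -0.47 through -0.35 to 0.09 on 5 YC arrays and fell by 0.27 in limma (SE 0.051, adjusted p = 0.00354). APT2, a homologue of the adenine phosphoribosyltransferase gene APT1, fell by 0.16, MEU1, the methylthioadenosine phosphorylase gene, by 0.15 and the purine-cytosine permease gene FCY2 by 0.13. The call of FCY2 was lost with arrays n and n plus 3 averaged (limma adjusted p = 0.108) and without YC arrays 1 and 4 (0.172). Of 5 PRPP synthetase genes, PRS5 fell (-0.19, SE 0.027, limma adjusted p = 0.000722), below 0 on 6 of 6 arrays. The other 4 stood at -0.11 to -0.06. In this list 20% fell, beside 11.8% of all genes tested that fell and 24.8% that passed in either direction.

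Histidine synthesis starts from the activated ribose too, its pathway yields a purine intermediate, and Bas1 also acts on some of its genes. Of 7 such genes, 3 rose and 4 did not pass in YC, which is 42.9% risen against 13% of all genes tested. That list, like the others, was chosen with earlier results of these data known. HIS7 lay at 0.12 to 0.21 on the 6 YC arrays and at -0.05 to 0.02 on the 6 YEPD arrays, without overlap, and rose by 0.18 in limma (SE 0.025, adjusted p = 0.000414). HIS4 rose by 0.16 and HIS2 by 0.09, the call of HIS2 being lost with arrays n and n plus 3 averaged (limma adjusted p = 0.114). Of 5 tested genes of serine and glycine synthesis, SER1 rose (0.18, SE 0.033, limma adjusted p = 0.0031). That is 20% risen, near the 13% of all genes tested. The remaining purine synthesis genes ADE8 (0.06) and ADE12 (0.17) did not pass in limma (adjusted p = 0.433 and 0.204).

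Of the regulator genes BAS1, PHO2 and GCN4, 0 rose in either medium. Whether their transcript levels bear on the changes above was not tested. BAS1 stood at -0.08 in YC (SE 0.058, n = 6 arrays) and at -0.07 in YEPD (n = 5 arrays), without passing in limma (adjusted p = 0.35 and 0.828). Its YC arrays ran from -0.36 to 0.19. Without YC arrays 1 and 4, BAS1 was lower in YC by limma (-0.18, adjusted p = 0.0346). The mean of those arrays was its highest in YC (0.12), so leaving them out could only lower BAS1. That call is no support for a fall. With arrays n and n plus 3 averaged, BAS1 stood at -0.08 in YC (limma adjusted p = 0.487). PHO2 stood at 0.03 in YC and 0.03 in YEPD (limma adjusted p = 0.66 and 0.908). GCN4, encoding the activator of amino acid synthesis genes, which binds a similar DNA motif, fell in YC by 0.14 in limma (SE 0.035, below 0 on 6 of 6 arrays, adjusted p = 0.0139). That call was lost with arrays n and n plus 3 averaged (adjusted p = 0.0534).

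Of 6 genes often used as strain markers, 0 passed in either medium by limma, and HIS3 had an unadjusted p under 0.05 in YC (0.10, adjusted p = 0.114). MET17 (0.05 in YC, 0.01 in YEPD) and LEU2 (-0.10 in YC, 0.13 in YEPD) had the opposite sign on opposite dye orientations on most arrays, with dye terms of -0.88 and -0.75. The genes directly beside the 10 on the chromosomes numbered 20, of which 19 were tested. In YC 2 of them rose, DYN3 next to ADE4 (0.11, limma adjusted p = 0.0108) and MRPS17 next to GCV2 (0.24, limma adjusted p = 0.0111), and 0 fell (0 passed in YEPD). The 2 of 19 lie near the 13% of all genes tested that rose there. None of the neighbours of ADE1 and MTD1 passed.

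Outside these lists, the genes closest to the median of the 8 over the 12 arrays were sought among 4588 genes measured on all of them. The measure was the mean absolute difference of the log2 ratios after removal of the dye term. GGA1 was closest (0.034), followed by YGR130C (0.048), YGR111W (0.049), ATG19 (0.050) and GUT2 (0.051). Of the 8 themselves, GCV2 (0.049) and ADE4 (0.052) lay nearest to that median, and MTD1 (0.162) and ADE1 (0.15) farthest.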

How the data were processed

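Per the labels, total RNA of san1 cells and of cells with SAN1 was compared on 12 2-channel arrays. Titles and source names give the medium. For YC arrays 1 to 3 the description says YEPD instead, and the titles were followed. The authors deposited 1 log ratio per array and spot, taken here as log2 and already centred near 0. No source used here gives the scanner, background correction, normalization or log base. The rows of 27 genes with several were averaged, arrays were centred on their medians and then turned to san1 over SAN1. A gene was tested if each medium held 2 or more values per dye orientation (5890 tested, 287 removed). limma 3.58.1 in R 4.3.3 fitted a mean per medium and 1 dye term, with moderated variances (prior degrees of freedom 3.76) and two-sided tests. The fit was tested on simulated data with independent arrays and the same spread in both media. That test therefore does not cover shared RNA between arrays or a wider spread in YC. Names come from the RefSeq table of assembly R64, which matched 5704 of 6204 rows by locus tag and 42 by synonym, and served only for names and neighbours.

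The genes and lists were chosen with earlier results of these data known. Named are the 10 genes, up to 4 genes of each list called in any contrast, with the lowest p, regulators, strain markers, called neighbours and the 5 genes of nearest pattern. Alternatives changed the centring, scaling, dye term, arrays, pairing, filter and variance model. The number of arrays limits the precision.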

Additional observations from a re-analysis of the deposited data

Results flagged for a closer look

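Differences between the change in YC and the change in YEPD that passed limma's test of the difference were found for 3 of the 8 tested purine and one-carbon genes, with values of 0.44 for MTD1, 0.41 for ADE1 and 0.19 for ADE13. In the related lists the change was more positive in YC for GCV1 (0.32), HIS7 (0.20) and SER1 (0.20). It was more negative in YC for AAH1 (-0.27), GUA1 (-0.22), FMT1 (-0.20), APT2 (-0.19), IMD3 (-0.17), IMD2 (-0.17) and PRS5 (-0.16). FMT1, encoding the methionyl-tRNA formyltransferase, passed in neither medium by itself (-0.05 in YC and 0.15 in YEPD). With arrays n and n plus 3 averaged, none of these 13 differences passed in limma (adjusted p = 0.0596 to 0.117). Each of the 10 genes was also searched in each medium for a single array far from the others, 20 searches in all, and 0 were found. The search cannot find arrays that lie apart together, as YC arrays 1 and 4 did for ADE17 and ADE4.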

How the results depend on the processing

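Among the 8 tested genes 0 passed in YEPD under all alternatives run. In YC, 5 passed, with 3 when the YC arrays were fitted alone or arrays n and n plus 3 were averaged, and 3 to 6 with an array left out. For the difference between media 3 passed, with 0 for averaged pairs, 6 without YC arrays 1 and 4 and 2 to 5 with an array left out. Over both media 3 passed, with 1 for averaged pairs, 6 without YC arrays 1 and 4 and 2 to 4 with an array left out. Leaving out YC arrays 1 and 4 or averaging YEPD arrays 4 and 6 was chosen after seeing the data.

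Over all genes, the 121 calls in YEPD became 65 for averaged pairs and 79 to 135 with an array left out. The 1460 in YC became 928 when fitted alone, 902 with the array number as a replicate block, 816 for averaged pairs and 964 to 1555 with an array left out. The 576 for the difference became 244 without a dye term, 49 with the replicate block, 3 for averaged pairs, 359 with the pairs as a random block, 200 with YEPD arrays 4 and 6 averaged and 166 to 798 with an array left out. The 610 over both media became 375, 268 and 197 without a dye term, with the replicate block and for averaged pairs, and 350 to 757 with an array left out. Averaging pairs leaves fewer values. The other causes were not tested.

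Whether array numbers pair the media was not settled: deviations of same-numbered arrays correlated at -0.316 to 0.182. Those of arrays n and n plus 3 correlated at 0.374, 0.518 and -0.217 in YC and 0.367, 0.231 and 0.0285 in YEPD, so whether the separate or the averaged arrays are the replicates was not settled. With the replicate block 6 of the 8 genes passed in YC, ADE4 added (limma adjusted p = 0.0489), and 2 for the difference, ADE13 lost (0.0922). ADE13 was lost there also without a dye term (0.118), with YEPD arrays 4 and 6 averaged (0.0532), and without YEPD array 1, 4 or 6 (0.0678, 0.0564 and 0.0547). ADE17 and GCV2 in YC were lost when YC was fitted alone (0.083 and 0.0619). Signs turned in values near 0 that passed in no setting. With an array left out, ADE5,7 ran from -0.0392 to 0.0583 in YC, from -0.0168 to 0.0044 in YEPD and from -0.0345 to 0.063 for the difference. In YEPD, MTD1 ran from -0.0559 to 0.0144 and ADE17 from -0.004 to 0.0256, with -0.0019 for ADE17 when YEPD arrays 4 and 6 were averaged.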
